A study of Saccharomyces cerevisiae with 15 samples.

Results

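The zinc homeostasis genes of Saccharomyces cerevisiae were followed across 15 arrays, each measuring how transcript levels differed between 2 RNA samples. The genes were taken by name, as probes whose symbol in the array's probe-to-gene table was one of 10 listed members. A probe was found for 8 of them (ZAP1, ZRT1, ZRT2, ZRT3, ZRC1, COT1, ZPS1 and ADH4), of 6249 genes or probes in all, 4068 of them named. No probe carried the symbol IZH1 or IZH2, and these membrane proteins of the family that includes animal adiponectin receptors were not analysed here. The list was drawn up with the low values of the zinc transporter gene ZRT1 already known, so the ratios of treated over mid-log cells are given as a description, without a test. The question was whether the low ZRT1 values extended to other genes controlled by Zap1.

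Both strains were W303 MATa. The snf1 deletion strain ACY509 was measured in 0.375 M KCl, in glucose at 0.1% and at 0.02%, and in nitrogen starvation, each against the same strain in mid-log growth, and once in mid-log growth against the wild type. The wild type ACY044 was measured against its own mid-log cells under 3 combined treatments (nitrogen and glucose starvation, glucose starvation with 200 nM rapamycin, and nitrogen starvation with 0.375 M KCl). It was also measured under 7 single treatments, which were 0.375 M KCl, 0.1% glucose, 200 nM rapamycin, starvation for amino acids or for nitrogen, 0.4 mM hydrogen peroxide and a shift to 42 °C. Treatments lasted 20 minutes. Rapamycin inhibits TORC1, the kinase complex that couples growth to nutrients, and Snf1 is the yeast AMP-activated kinase. Each value is a log2 ratio, treated over mid-log, so that −1 is a level 2-fold lower. Each condition had 1 array, so no value has a replicate error, and the labels do not state whether arrays shared a mid-log culture.

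Facts of the whole set bear on how the values are read. On the peroxide array the treated cells were in the Cy3 channel, opposite to every other array, and its sign was turned. No condition was measured with both dye orders. Dye bias thus cannot be told apart from an effect of treatment or strain on any array, the peroxide array included. The labels name the medium SD for both channels of the rapamycin, starvation and KCl arrays, but no medium for the heat shock and peroxide arrays or for the mid-log strain array. Between 717 and 1256 spots were listed at exactly 0 on 6 arrays and were taken as no value. None of the 8 members was among them, and none was blank. SNF1 was listed at 0 where the strains were compared in mid-log growth, taken as no value, and stood at 0.05 to 2.57 on the 4 arrays of treated snf1 cells, so the deletion could not be checked from these values.

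Zinc is a cofactor of many enzymes and transcription factors, and yeast keeps its level within bounds through the activator Zap1. Zap1 is active when cellular zinc is low, binds zinc-responsive elements in its target promoters and raises uptake, release from the vacuole and its own gene. When zinc is plentiful its targets are little transcribed, and surplus zinc is moved into the vacuole.

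ZAP1, the gene of the activator, was lower than in mid-log cells on all 14 arrays of treated cells. In wild-type cells its log2 ratio was −2.51 in KCl, −3.83 in 0.1% glucose, −2.43 with rapamycin, −3.20 in amino acid starvation, −3.17 in nitrogen starvation, −1.05 in peroxide and −0.09 at heat shock. Heat shock was the array without a 2-fold lower ZAP1, and 13 of the 14 arrays had one. In 0.1% glucose ZAP1 was the 8th lowest of 6249 genes with a value, and in amino acid starvation the 6th lowest of 5487.

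ZRT1, the high-affinity zinc transporter of the plasma membrane, had larger differences than ZAP1 under the same 5 treatments. Its log2 ratio was −4.74 in KCl, −4.35 in 0.1% glucose, −4.32 with rapamycin, −3.53 in amino acid starvation, −3.69 in nitrogen starvation, −0.58 in peroxide and −0.33 at heat shock. The lowest of these, in KCl, was a level 26.7-fold lower, and the value with rapamycin a level 20.0-fold lower. ZRT1 was thus low by a factor of more than 10 on 5 arrays and near mid-log on the other 2, with no array in between. It was the lowest of all genes with a value in rapamycin, amino acid starvation and KCl, and the 2nd lowest in 0.1% glucose, whereas at heat shock it ranked 2091st from the bottom of 5193 genes.

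ZRT2, the low-affinity zinc transporter of the plasma membrane, varied over a smaller range. It stood at −1.49 in KCl, −1.75 in 0.1% glucose, −1.82 with rapamycin, −0.47 in amino acid starvation, −1.45 in nitrogen starvation, −1.03 in peroxide and −0.91 at heat shock. All 7 values lay below 0 and spanned 1.35 log2 units, against 4.41 for ZRT1. In amino acid starvation, where ZRT1 was the lowest gene of the array, ZRT2 was less than 2-fold lower.

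The 3 vacuolar transporters differed among themselves. ZRT3, which releases zinc from the vacuole into the cytosol, was at −1.83 in KCl, −2.56 in 0.1% glucose, −0.98 with rapamycin, −2.40 in amino acid starvation, −2.0 in nitrogen starvation, 0.01 in peroxide and 0.11 at heat shock. Like ZRT1 it was near mid-log in peroxide and at heat shock.

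ZRC1 moves zinc into the vacuole and is known as a Zap1 target, although its product works against Zrt3. It was at −1.01 in KCl, −0.92 in 0.1% glucose, −1.02 with rapamycin, −0.85 in amino acid starvation, −1.52 in nitrogen starvation, −1.13 in peroxide and −0.70 at heat shock. ZRC1 was thus modestly and evenly lower, within 0.82 log2 units, heat shock and peroxide included. COT1, a vacuolar transporter related to ZRC1 and known for cobalt tolerance, was at 0.45 in KCl, 0.30 in 0.1% glucose, 0.46 with rapamycin, 0.78 in amino acid starvation, 0.75 in nitrogen starvation, 1.30 in peroxide and −0.28 at heat shock. COT1 was above mid-log on 6 of the 7 arrays, and it was the member with a 2-fold higher value, in peroxide, where 9.97% of all genes had one.

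ZPS1 and ADH4 are strongly induced through Zap1 when zinc is scarce. ZPS1 encodes a cell wall protein anchored through a lipid, and ADH4 an alcohol dehydrogenase. ZPS1 was at −0.23 in KCl, −0.35 in 0.1% glucose, 0.17 with rapamycin, −1.38 in amino acid starvation, −0.83 in nitrogen starvation, 0.09 in peroxide and 0.70 at heat shock. ADH4 was at 0.36 in KCl, 0.13 in 0.1% glucose, −0.03 with rapamycin, −1.46 in amino acid starvation, −1.40 in nitrogen starvation, −0.31 in peroxide and 0.15 at heat shock. Both were lowest in amino acid starvation and next in nitrogen starvation, and neither was 2-fold lower with rapamycin, 0.1% glucose or KCl, where ZRT1 was lower by more than 4 log2 units. In the RefSeq annotation of assembly R64, ADH4 and ZRT1 lie on the same chromosome with only a noncoding transcript, SUT532, between them. FZF1, the gene on the other side of ZRT1 and an activator of sulfite export, stayed between −0.26 and 0.32 on the 7 arrays.

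**Figure D1:**
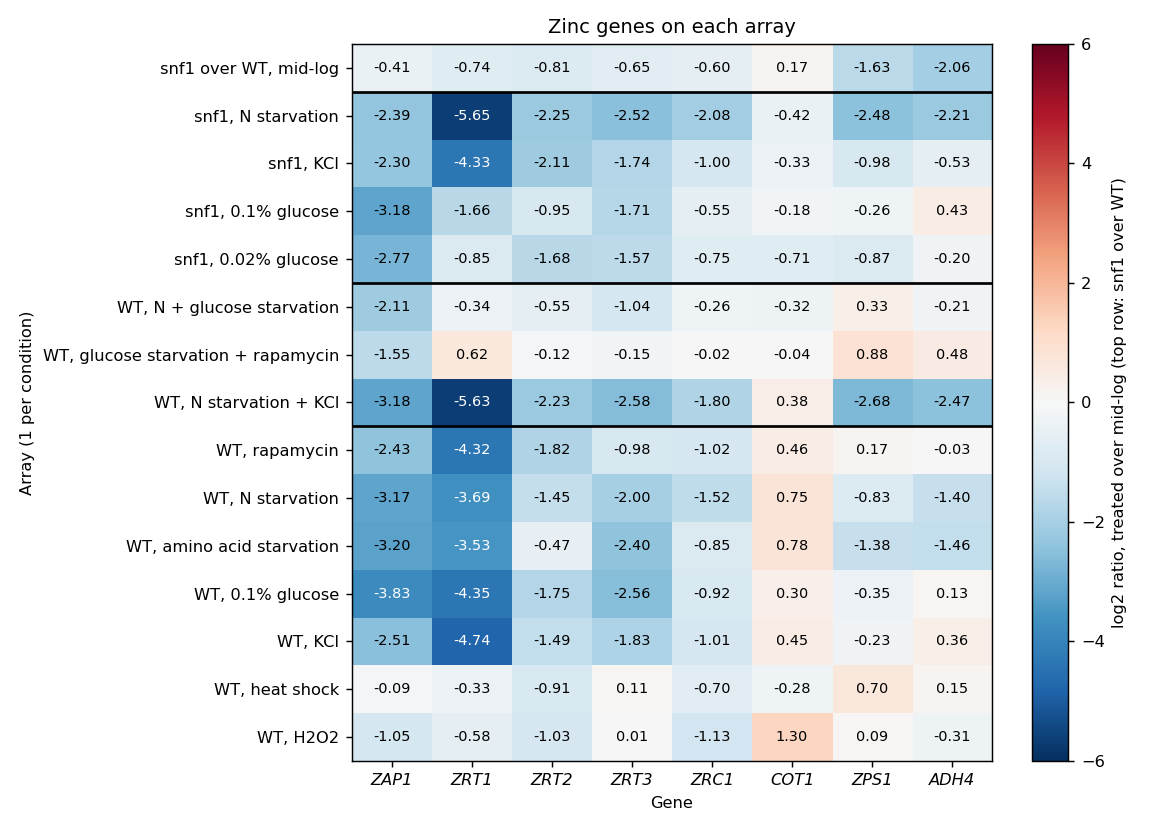
The log2 ratio of the 8 zinc homeostasis genes (columns) on the 15 arrays (rows, 1 array each), printed in each cell and coloured from blue (lower) to red (higher). The top row sets snf1 against wild type at mid-log, and the other rows compare treated with mid-log cells of one strain: ZAP1 is at or below −1.05 in every treated row except heat shock (−0.09), while ZRT1 runs from −5.65 to 0.62.

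Counted over the 7 single treatments, 27 of the 56 values of the 8 members were at least 2-fold lower (48.2%) and 1 was at least 2-fold higher. Among all genes 15.3% of values were at least 2-fold lower and 13.3% at least 2-fold higher. Nothing is read from this excess, since the members were chosen from the same ratios. By array, the number of members at least 2-fold lower was 5 in KCl (15.7% of all genes), 4 in 0.1% glucose (19.1% of all genes), 4 with rapamycin (11.5%), 5 in amino acid starvation (14.7%), 6 in nitrogen starvation (14.6%), 3 in peroxide (12.3%) and 0 at heat shock (18.4%). Some counts turn on values close to the limit, such as ZRC1 at −1.02 with rapamycin and −1.01 in KCl, and ZRT3 at −0.98 with rapamycin. ZAP1, ZRT1 and ZRT2 were at least 2-fold lower on 5 or more of the 7 arrays, as were 8.7% of all genes with a value on every one of them. The median of the members' means over the 7 arrays was −1.15, beside −0.045 for all genes.

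Other genes reported as Zap1 targets in zinc-limited cells, from a list that leaves out the members, were spread on both sides of 0. Of 21 listed genes 18 had a probe, and 8 of the 18 had a mean below 0 over the 7 arrays. Their median was 0.23, beside −0.045 for all genes. Of their 125 values 26 were at least 2-fold lower (20.8%, against 15.3% of all values) and 28 at least 2-fold higher (22.4%, against 13.3%).

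Among these 18 genes, 2 were at least 2-fold lower on 5 of the 7 arrays. Of all genes 8.7% were so on 5 or more, and nothing is read from the count. ZRG17, whose product works with Msc2 in zinc transport into the endoplasmic reticulum, was at −0.89 in KCl, −1.89 in 0.1% glucose, −1.38 with rapamycin, −1.52 in amino acid starvation, −1.61 in nitrogen starvation, −0.21 in peroxide and −1.17 at heat shock. MNT2, a mannosyltransferase gene that neighbours ADH4, was at −1.38 in KCl, −1.42 in 0.1% glucose, −0.86 with rapamycin, −1.09 in amino acid starvation, −1.40 in nitrogen starvation, −0.17 in peroxide and −1.03 at heat shock. Both were low at heat shock, where ZRT1 and ZAP1 were near mid-log. FET4, a low-affinity transporter of iron and other metals including zinc, was at −2.35 in KCl, −2.42 in 0.1% glucose, −1.25 with rapamycin, −0.73 in amino acid starvation, −0.93 in nitrogen starvation, 0.39 in peroxide and 0.42 at heat shock. It was thus lowest in 0.1% glucose and KCl, and above mid-log in the same 2 stresses that left ZRT3 near mid-log.

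On the other side, CTT1, the cytosolic catalase, and URA10, a minor orotate phosphoribosyltransferase of pyrimidine synthesis, were at least 2-fold higher on 6 of the 7 arrays (6.5% of all genes were so on 5 or more). CTT1 ranged from 0.91 with rapamycin to 6.48 in KCl, and URA10 from 0.97 at heat shock to 2.22 in 0.1% glucose. CTT1 is also a known target of the general stress activators Msn2 and Msn4. TSA1, a peroxiredoxin, lay between −0.58 in amino acid starvation and 1.04 with rapamycin. ADH1 and ADH3, alcohol dehydrogenase genes that are repressed through Zap1 when zinc is scarce, were not on one side of 0 either. ADH1 was at 1.48 in KCl, 1.95 in 0.1% glucose, 1.42 with rapamycin, 0.26 in amino acid starvation, −0.61 in nitrogen starvation, −2.09 in peroxide and 1.70 at heat shock, and ADH3 ranged from −0.93 in KCl to 0.76 in amino acid starvation.

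As a further comparison, 13 transporters of iron, copper, manganese, magnesium and other metal ions had 12 of 90 values at least 2-fold lower (13.3%), close to the 15.3% of all genes. None of them was at least 2-fold lower on 5 or more of the 7 arrays, beside 8.7% of all genes. Their median mean was −0.20, beside −1.15 for the zinc members, which were chosen from these ratios, so nothing is read from the contrast. The transporters' means ran from −1.51 for CTR1 to 0.67 for ALR2. That of CTR1 was below those of ZRT3 (−1.38), ZRT2 (−1.27) and ZRC1 (−1.02). Of 6 other zinc-related genes, mostly transport or IZH genes, 3 had a probe. Of their 21 values 2 were at least 2-fold lower and 7 at least 2-fold higher (33.3%, against 13.3% of all values). Their median mean was 0.67. Of the 7 higher values 4 were those of PHO84, a phosphate transporter that can also carry zinc, and 3 those of ZRG8, at 1.01 with rapamycin, 1.09 at heat shock and 1.24 in peroxide. MSC2, whose product works with Zrg17, stayed between −0.66 and 0.20.

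**Figure D2:**
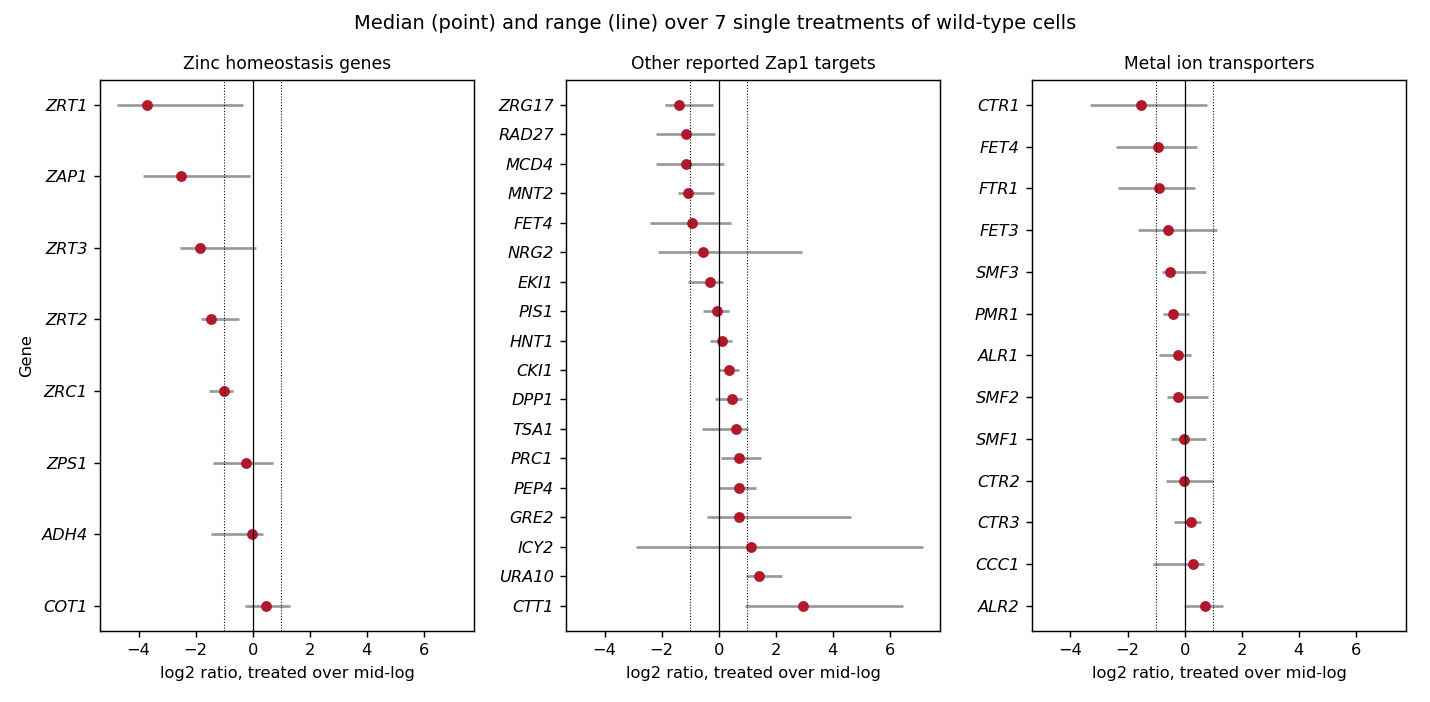
Median (point) and range (line) of the log2 ratio over the 7 single treatments of wild-type cells for the 8 zinc homeostasis genes, 18 other reported Zap1 targets and 13 metal ion transporters (FET4 is on both of the latter lists), with dotted lines at a 2-fold difference. ZRT1 has a median of −3.69 and ZAP1 one of −2.51, while CTT1 reaches 6.48 and COT1 has a median of 0.46.

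Under combined treatments, the low ZRT1 values were absent whenever glucose was withdrawn together with nitrogen or with rapamycin. The ZRT1 ratio was −0.34 in nitrogen and glucose starvation, against −3.69 in nitrogen starvation and −4.35 in 0.1% glucose. It stood at 0.62 in glucose starvation with rapamycin, against −4.32 with rapamycin and −4.35 in 0.1% glucose. ZRT1 thus stood near or above mid-log under either pair and was among the lowest genes under each treatment alone. The labels of these combined arrays speak of total carbon starvation and give no glucose percentage, so they may differ in glucose from the 0.1% array.

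ZAP1 remained low under these pairs. Its ratio was −2.11 in nitrogen and glucose starvation, against −3.17 in nitrogen starvation and −3.83 in 0.1% glucose, and −1.55 in glucose starvation with rapamycin, against −2.43 with rapamycin. In nitrogen and glucose starvation ZAP1 was the 46th lowest of 6249 genes, whereas ZRT1 ranked 2636th. ZRT3 was at −1.04 and −0.15 under the pairs with glucose starvation, in the order nitrogen and rapamycin, against −2.56 in 0.1% glucose. Under the same pairs ZRT2 was at −0.55 and −0.12 and ZRC1 at −0.26 and −0.02.

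In nitrogen and glucose starvation, 2 members were at least 2-fold lower (18.1% of all genes), and in glucose starvation with rapamycin 1, ZAP1, was (15.3%). Set against nitrogen starvation alone, 5 of 8 members were at least 2-fold higher when glucose was withdrawn too (ZAP1, ZRT1, ZPS1, ADH4 and ZRC1), beside 13.6% of all genes, and COT1 was 2-fold lower, by a difference of −1.07 (12.4% of all genes). The largest of these differences was that of ZRT1 at 3.35. Set against 0.1% glucose, the same pair had 4 of 8 members at least 2-fold higher (11.5% of all genes), ZRT1 by 4.01, ZAP1 by 1.72, ZRT3 by 1.52 and ZRT2 by 1.20. Set against rapamycin alone, 3 of 8 were at least 2-fold higher in glucose starvation with rapamycin (8.18% of all genes), ZRT1 by 4.94, ZRT2 by 1.70 and ZRC1 by 1.00. Set against 0.1% glucose, 5 of 8 were (11.9% of all genes), ZRT1 by 4.97, ZRT3 by 2.41, ZAP1 by 2.28, ZRT2 by 1.63 and ZPS1 by 1.23. These differences have no replicate check.

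Nitrogen starvation with KCl had the opposite course, with 7 of 8 members at least 2-fold lower (23% of all genes) and COT1 at 0.38. ZRT1 was at −5.63 under the pair, against −3.69 in nitrogen starvation and −4.74 in KCl. ZAP1 was at −3.18 under the pair, against −3.17 and −2.51 in the same order. For both genes the value of the pair was closer to 0 than the sum of the single values, by 2.80 for ZRT1 and 2.50 for ZAP1. The same held for ZRT3 (by 1.25), ZRC1 (by 0.73), ZRT2 (by 0.71) and COT1 (0.38 against a sum of 1.20). The sum for ZRT1, −8.43, lay below the lowest deposited value (−7.18), and whether the ratios have a floor was not tested. ADH4 and ZPS1 were beyond their sums. ADH4 was at −2.47 under the pair, against −1.40 in nitrogen starvation and 0.36 in KCl, which is 1.43 further down than their sum (a difference of −1.43). ZPS1 was at −2.68 under the pair, against −0.83 and −0.23, a difference of −1.62 from the sum. Set against nitrogen starvation, 3 members were at least 2-fold lower under the pair (ZRT1, ZPS1 and ADH4, beside 9.77% of all genes), and set against KCl 2 were, ADH4 by a difference of −2.83 and ZPS1 by one of −2.45 (10.5% of all genes). The log2 ratios of all genes were also most widely spread on this array, with an SD of 1.54 across genes, against 1.22 in nitrogen starvation and 1.21 in KCl.

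**Figure D3:**
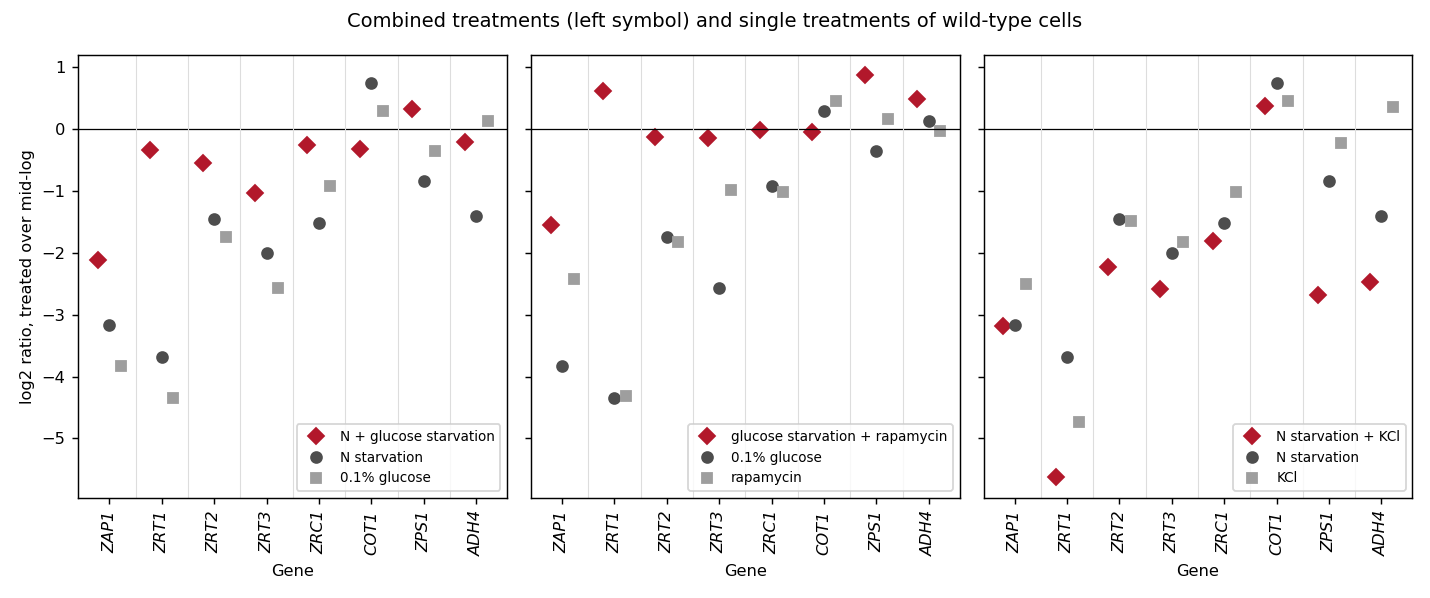
The log2 ratio over mid-log of each member in 3 combined treatments (red diamonds) and in the matching single treatments (dark circles and light squares), 1 array per symbol. ZRT1 is at −0.34 and 0.62 in the pairs with glucose starvation and at −5.63 in nitrogen starvation with KCl.

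In mid-log growth the snf1 strain had lower values than the wild type for 7 of the 8 members. ADH4 stood at −2.06 (snf1 over wild type) and ZPS1 at −1.63, the 6th and 9th lowest of 5047 genes with a value on that array. ZRT2 was at −0.81, ZRT1 at −0.74, ZRT3 at −0.65, ZRC1 at −0.60 and ZAP1 at −0.41, and COT1 was at 0.17. ADH4 and ZPS1 were thus the 2 members at least 2-fold lower, as were 1.62% of all genes. The median of the 8 members was −0.695, beside −0.02 for all genes. The 18 other Zap1 targets had a median of −0.345, with 16 of 18 below 0. The share of all genes below 0 is not given here, so nothing is read from the counts below 0. This is 1 array, and the labels name no medium for it.

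Treated snf1 cells were measured against their own mid-log level. The number of members at least 2-fold lower in snf1 cells was 5 in KCl (13.4% of all genes), 3 in 0.1% glucose (13.3%), 3 in 0.02% glucose (7.52%) and 7 in nitrogen starvation (18.9%). ZAP1 was at −2.30 in KCl, −3.18 in 0.1% glucose, −2.77 in 0.02% glucose and −2.39 in nitrogen starvation. It was the 7th lowest of 6249 genes in 0.1% glucose and the 3rd lowest in 0.02% glucose. ZRT1 was at −4.33 in KCl, −1.66 in 0.1% glucose, −0.85 in 0.02% glucose and −5.65 in nitrogen starvation. ZRT1 was thus the lowest gene of the array in nitrogen starvation and in KCl, while on both low-glucose arrays it was closer to 0 than ZAP1 and ZRT3 (−1.71 and −1.57).

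Between strains, ZRT1 differed one way in nitrogen starvation and the other way in 0.1% glucose. In nitrogen starvation it was at −5.65 in snf1 cells and −3.69 in the wild type, a difference of −1.96. In 0.1% glucose it was at −1.66 in snf1 cells and −4.35 in the wild type, a difference of 2.69, and in KCl at −4.33 in snf1 cells and −4.74 in the wild type. A 2-fold higher snf1 value in 0.1% glucose was found for 14.3% of all genes and for ZRT1 alone among the members. In KCl no member differed 2-fold between strains, while 2.87% of all genes were lower and 1.36% higher in snf1 cells by that factor. A 2-fold lower snf1 value in nitrogen starvation was found for ZRT1, ZPS1 and COT1 and for 3.67% of all genes.

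COT1 was the member whose strains did not overlap over the 3 shared treatments. In snf1 cells it was at −0.33 in KCl, −0.18 in 0.1% glucose and −0.42 in nitrogen starvation, against 0.45, 0.30 and 0.75 in the wild type. Of all genes 3.35% had all 3 snf1 values below all 3 wild-type values. ZAP1 was closer to 0 in snf1 cells under each of the 3 treatments, by 0.78 in nitrogen starvation, 0.21 in KCl and 0.65 in 0.1% glucose.

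The strain difference was tested with limma over these 6 arrays, with the treatment as a block and Benjamini-Hochberg adjustment over 5401 genes. All 6 arrays hold ratios of treated over mid-log cells, the kind of ratio from which the members were chosen. The members' intervals and p-values here are thus a description and no independent support. No member passed the threshold of 0.05. By limma COT1 had a difference of −0.81 (95% interval −1.33 to −0.29, adjusted p = 0.302), negative in 3 of 3 treatments, and ZAP1 one of 0.55 (0.04 to 1.05, adjusted p = 0.354), positive in 3 of 3. For ZRT1 it was 0.38 (−1.53 to 2.29, adjusted p = 0.841), and it turned to −0.775 without the 0.1% glucose pair and stood at 1.55 without the nitrogen pair. Of all genes 1 was lower and 0 were higher (0.0185% and 0%), against 47 in all without the nitrogen pair, while 738 had an unadjusted p under 0.05 (13.7%), COT1 and ZAP1 among them. The spread in this test is that of the strain difference from one treatment to another.

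Since the mid-log strain array gives snf1 over wild type, adding it to a ratio of treated snf1 cells estimates the level relative to wild-type mid-log cells. The sum holds only if the snf1 mid-log cells were alike on both arrays. The labels name no medium for the strain array, so this was not tested. ADH4 then stood at −4.27 in nitrogen-starved, −2.59 in KCl-treated and −1.63 in glucose-limited (0.1%) snf1 cells, against −1.40, 0.36 and 0.13 in wild-type cells. ZPS1 stood at −4.11, −2.61 and −1.89 in snf1 cells, against −0.83, −0.23 and −0.35 in wild-type cells. The same mid-log strain array enters all 3 sums, so they are not 3 separate measurements, and the 2 genes are shown because they were the lowest members on that array. Each measured against its own mid-log level, both were slightly higher in 0.1% glucose in snf1 cells, ADH4 at 0.43 against 0.13 in the wild type and ZPS1 at −0.26 against −0.35. The sums of ZRT2, ZRC1 and COT1 were also below the wild-type value in every treatment, ZRT2 in 0.1% glucose by the least (−1.76 against −1.75). Those of ZRT1, ZRT3 and ZAP1 went both ways. ZRT1 and ZRT3 were above the wild type in 0.1% glucose (−2.40 against −4.35, and −2.36 against −2.56) and below it in nitrogen starvation and KCl. ZAP1 was above it in nitrogen starvation (−2.80 against −3.17) and 0.1% glucose (−3.59 against −3.83), and below it in KCl.

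**Figure D4:**
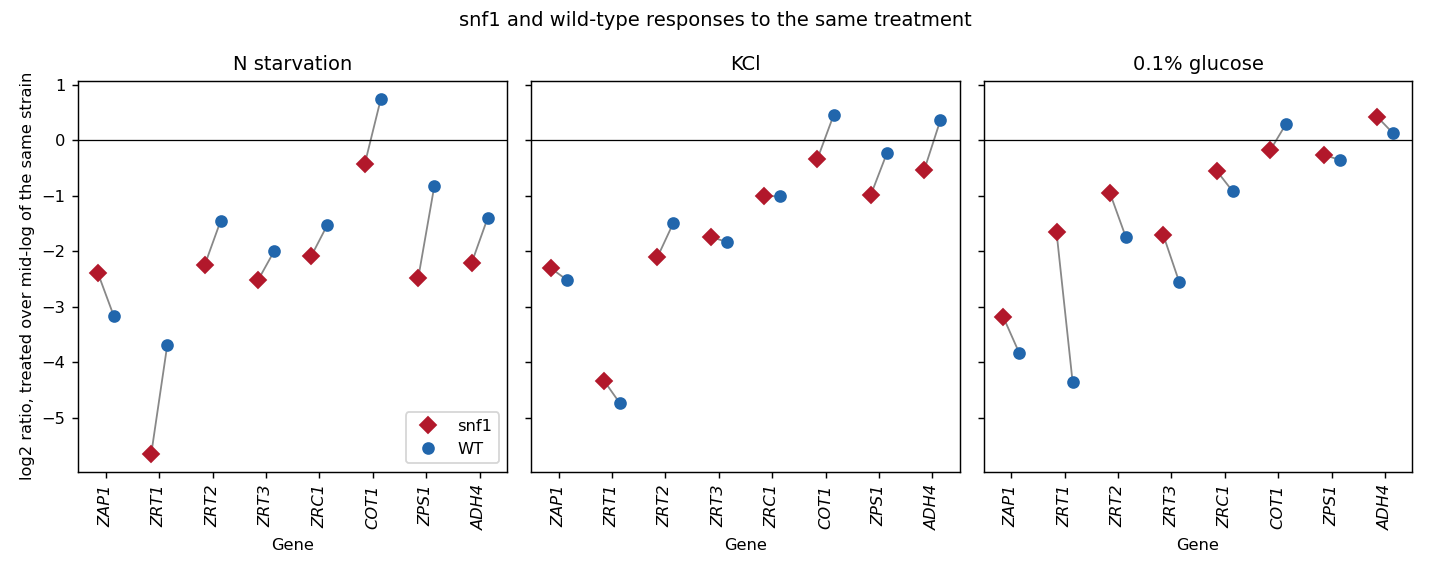
The log2 ratio over mid-log of the same strain for each member in snf1 cells (red diamonds, left) and wild-type cells (blue circles, right) under nitrogen starvation, KCl and 0.1% glucose, 1 array per point. ZRT1 is lower in snf1 cells in nitrogen starvation (−5.65 and −3.69) and higher in 0.1% glucose (−1.66 and −4.35), and COT1 is lower in all 3 panels.

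**Figure D5:**
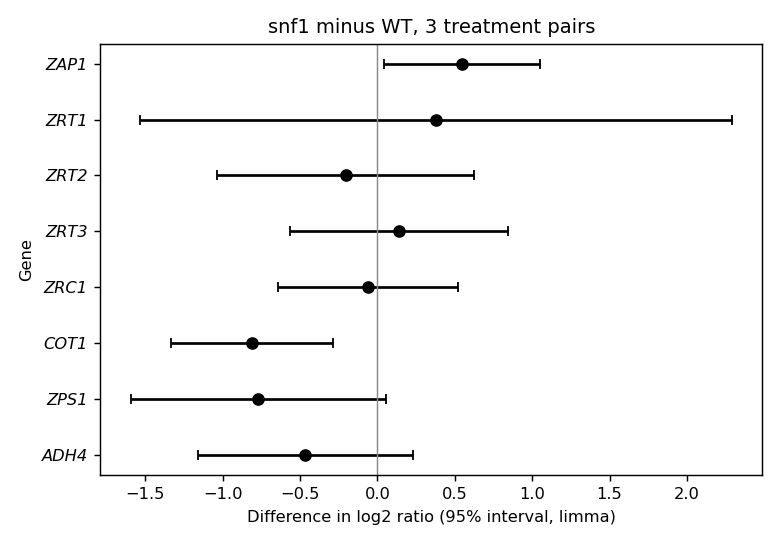
Differences in log2 ratio, snf1 minus wild type, with 95% intervals from limma for each member over 3 treatment pairs. COT1 is at −0.81 and ZAP1 at 0.55, and no member passed after adjustment over all genes. The members were chosen from ratios of this kind, so the intervals are a description.

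The single treatments of wild-type cells also fall into 3 starvations (nitrogen, amino acids and 0.1% glucose) and 3 stresses (KCl, heat shock and peroxide). These are the same ratios from which the members were chosen, so their differences between starvation and stress are a description, without a test. ZAP1 ranged from −3.83 to −3.17 in starvation and from −2.51 to −0.09 in stress, a difference of means of −2.18. ZRT3 ranged from −2.56 to −2.0 in starvation and from −1.83 to 0.11 in stress, a difference of −1.75. ZPS1 ranged from −1.38 to −0.35 in starvation and from −0.23 to 0.70 in stress, a difference of −1.04. For these 3 members the groups did not overlap. The share of all genes without overlap is not given here, so nothing is read from that count.

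For ZRT1 the groups overlapped, since KCl gave its lowest value among the 7 treatments. Its difference was −1.97, and it stood at −3.40 without KCl and −1.20 without heat shock. For ADH4 it was −0.98, and −1.50 without 0.1% glucose. ZRC1 at −0.15, ZRT2 at −0.08 and COT1 at 0.12 changed sign when certain single arrays were left out. Fitted by limma over 4966 genes, 0 genes passed in either direction (0%), against 50 without the 0.1% glucose array, and 490 had an unadjusted p under 0.05 (9.87%). Heat shock and peroxide, the arrays without a named medium, were both on the stress side, and the part of the medium was not tested.

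The members also differed in how their profiles over the 14 arrays of treated cells ran together. Several arrays share a strain and a kind of control, so these Pearson correlations are a description. ZAP1 was closest to ZRT3 (r = 0.876) and less close to ZRT1 (0.589), ZRC1 (0.269) and ADH4 (0.305). ADH4 and ZPS1 had r = 0.8905 with each other and 0.803 and 0.808 with ZRC1. ZRT1 had r = 0.799 with ZRT3, 0.779 with ZRC1 and 0.7755 with ZRT2, and COT1 had values between −0.235 and 0.128 with the other 7 members.

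Among 3492 other named genes with a value on all 14 arrays, none of the 5 whose profile was closest to that of ZRT1 was a zinc gene of the list. They were YTM1 (r = 0.930), an assembly factor of the large ribosomal subunit, PHO3 (0.929), a thiamine-repressed acid phosphatase, SQT1 (0.9255), a chaperone of a large subunit ribosomal protein, ELP3 (0.918), the catalytic subunit of Elongator, and YVH1 (0.917), a phosphatase needed late in large subunit assembly. ZRT3 was the closest member, in 74th place, and ZAP1 was in 340th place. YTM1 was at −1.02 in nitrogen and glucose starvation and −0.74 in glucose starvation with rapamycin, against −2.98 in nitrogen starvation and −3.09 with rapamycin. At heat shock YTM1 was at −1.54, where ZRT1 was at −0.33.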

How the data were processed

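The deposited table holds log2 ratios of Cy5 over Cy3 for 15 2-colour arrays, rounded by the authors to 2 decimals. No source used here states the log base, and 2 was taken because the extremes (−7.18 and 9.47) would exceed a scanner's range on a log10 scale, so another base would rescale every value. The labels give no background correction, normalisation or spot filter. Dyes were read per the labels, and the peroxide array was turned. Exact zeros on arrays with over 500 of them were taken as no value. Symbols came from the platform's annotation (4075 of 6256 gene probes, 129 updated through RefSeq), and probes of 7 genes were averaged. Unused sample columns numbered 0.

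Tests used limma 3.58.1 in R 4.3.3 (lmFit, eBayes) over every gene with a value on the 6 arrays compared, with Benjamini-Hochberg adjustment, and were checked on simulated data. Starvation against stress was fitted over all genes, but the members' values there are given without a test, since the same ratios chose them. The strain test also draws on such ratios, so its values for the members are a description. Members and lists were chosen with earlier results of these data known. Members are named throughout. From the other Zap1 targets, genes at least 2-fold lower or higher on 5 or more of the 7 single-treatment arrays are named, with TSA1, FET4 and ZRG17 always, as are ADH1 and ADH3. From the other lists, genes at least 2-fold lower on 5 or more arrays are named, and others named were chosen after their values were seen. The 5 genes most correlated with ZRT1 are named too. Alternatives were zeros kept, arrays centred on their medians, the peroxide array left out, other gene filters, a robust prior, no treatment block, and each array or pair left out. Precision is bounded by having 1 array per condition. A search of promoters for zinc-responsive elements was planned but not run here.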

Additional observations from a re-analysis of the deposited data

Results flagged for a closer look

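COT1 had opposite signs in the 2 strains on every array of the 3 shared treatments, below 0 in snf1 cells (−0.42, −0.33 and −0.18) and above 0 in wild-type cells (0.75, 0.45 and 0.30). The mean difference of snf1 minus wild type was −0.81. It missed the threshold by limma (adjusted p = 0.302), and adjusted p was above the threshold under every alternative run for that test. The members were chosen from ratios of this kind and each condition had 1 array, so these values are a description.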

How the results depend on the processing

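No member was called between strains under any alternative. The count of 2-fold lower member values, 27 at first, was 24 to 27 under the alternatives. The 24 was without the peroxide array, where fewer values were counted. The count of 2-fold higher ones, 1, was 0 without the peroxide array. Of all genes, 0 were called for starvation against stress, and 0 to 50 when each array was left out, the 50 without 0.1% glucose. For snf1 against wild type, 1 gene was called, against 0 over genes measured on all 15 arrays, 16 with arrays centred, 0 with zeros kept, 0 without the treatment block, and 0 to 47 when each pair was left out, the 47 without nitrogen starvation. The causes were not tested. Differences not past the threshold changed sign in starvation against stress when arrays were left out, with ZRT2 between −0.46 and 0.18 (above 0 without nitrogen starvation, 0.1% glucose or heat shock), ZRC1 between −0.27 and 0.06 (0.0617 without nitrogen starvation) and COT1 between −0.265 (without heat shock) and 0.525. Between strains ZRT1 lay between −0.775 and 1.55 and ZRT3 between −0.215 and 0.47, both below 0 without the 0.1% glucose pair, and ZRT2 between −0.71 and 0.09 and ZRC1 between −0.275 and 0.19, both above 0 without the nitrogen pair. ZRT2 was 0 without the KCl pair, since its differences in nitrogen starvation (−0.80) and 0.1% glucose (0.80) cancelled. No other member's difference changed sign under these alternatives. No paired analysis by replicate number was possible because each condition had 1 array. Signal over background was not analysed here, so it is not known which ratios rest on dim spots.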

Other observations

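PHO84, the high-affinity phosphate transporter, which can also carry zinc and other metals, was singled out after its values were seen. It was at 3.20 in KCl, 0.91 in 0.1% glucose, 3.32 with rapamycin, 4.41 in amino acid starvation, 3.37 in nitrogen starvation, −1.67 in peroxide and −2.02 at heat shock. On these 7 arrays PHO84 was above mid-log on the 5 with a low ZRT1, but not so on other arrays. PHO84 was at −0.66 in nitrogen starvation with KCl, where ZRT1 was at −5.63, and at −1.95 in nitrogen-starved snf1 cells, where ZRT1 was at −5.65. In nitrogen and glucose starvation PHO84 was at 1.44 and ZRT1 at −0.34. In nitrogen starvation PHO84 stood at −1.95 in snf1 cells and 3.37 in wild-type cells. By limma over the 3 shared treatments its strain difference was −2.02 (95% interval −4.57 to 0.53, adjusted p = 0.431).

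CTR1, the high-affinity copper transporter, also singled out after its values were seen, was at −2.20 in KCl, −0.37 in 0.1% glucose, −1.53 with rapamycin, −3.31 in amino acid starvation, −3.05 in nitrogen starvation, 0.80 in peroxide and −0.94 at heat shock. It was close to mid-log in 0.1% glucose, where ZRT1 was at −4.35.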
